A study of Mus musculus with 29 samples.

Results

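The 10 genes described here, which mark the contractile and supporting cells of the vessel wall, were followed through 29 mouse brain transcriptomes in 8 groups. The members were the 10 rows of the count files that belong to Pdgfrb, Rgs5, Kcnj8, Abcc9, Anpep and Vtn, which mark brain pericytes, and to Acta2, Tagln, Myh11 and Des, which mark vascular smooth muscle. All 10 were found among the 25746 genes listed, and all 10 passed the filter on low counts that left 17031 genes to test. The lowest count of any member in any mouse was 24, for Des, and the highest was 4669, for Rgs5.

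All mice were 3 months old, and brain tissue was sequenced as polyA RNA. Wildtype mice (WT, strain C57BL/6J) formed a non-stroked group of 4, a stroked group of 4, a stroked group of 3 given the calcineurin inhibitor tacrolimus from day 0 after stroke (WT-Tacr acute), and a stroked group of 5 given it from day 7 (WT-Tacr delayed). Rag2-/- mice, which have no mature T or B cells, formed a non-stroked group of 3 and a stroked group of 3. NSG mice, which also lack natural killer cells, formed a non-stroked group of 4 and a stroked group of 3. Stroke was photothrombotic, in the right sensorimotor cortex, and stroked tissue was taken at 21 days. Tacrolimus came from an implanted osmotic pump, and no non-stroked mice given tacrolimus were analysed here. The study describes its non-stroked tissue in one place as contralesional and in another as naïve, so these libraries are called non-stroked throughout. Each library is called a mouse below and was tested as independent. The study lists fewer NSG animals for sequencing than there are NSG libraries, and fewer tacrolimus-treated ones, so some of these libraries may share an animal. The labels do not tie libraries to animals, so no fit within animals was made. Stroked and non-stroked libraries of a strain share some replicate numbers, but whether a shared number marks the same animal is not given and was not tested. The p-values for these mice rest on an independence that the sources do not bear out. Of the strains used, NSG alone derives from NOD rather than from C57BL/6. Strain background and immune deficiency therefore cannot be told apart where NSG mice are compared with others.

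Pericytes are mural cells that sit in the basement membrane of capillaries, where they hold on to the endothelium through PDGF-B signalling to the receptor encoded by Pdgfrb and help to maintain the blood-brain barrier. Vascular smooth muscle cells wrap arteries and arterioles and contract through a cytoskeleton of smooth muscle actin and myosin. In brain injury, cells that express Pdgfrb also include the fibroblasts of the meninges and large vessels, which take part in scar formation. Since whole tissue was sequenced, fewer cells of a type and less RNA per cell cannot be told apart in any value below.

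The libraries held 17789044 to 43403413 counts. Sample titles carry the name Imm2 (20 libraries, at least 32507506 counts each) or TF (9 libraries, at most 29928311 counts each). These 2 sets are called cohorts here, although the titles do not say what the names stand for. Every non-stroked, Rag2-/- and NSG library was in Imm2 and every WT-Tacr delayed library was in TF, whereas stroked WT mice were split 2 and 2 and WT-Tacr acute mice 1 and 2. A second difference among libraries was choroid plexus RNA. The summed level of 8 choroid plexus markers, all of them detected, ran from 10.2 to 825 CPM (counts scaled to the size of the library) in non-stroked WT mice, from 14.2 to 266 in stroked WT mice, from 4.79 to 24.8 in WT-Tacr acute mice, from 18.4 to 876 in WT-Tacr delayed mice and from 10.97 to 1608 in stroked Rag2-/- mice. It was 7.87 to 12.7 CPM in non-stroked Rag2-/- mice, 17.1 to 1198 in non-stroked NSG mice and 23.2 to 428 in stroked NSG mice. Fits that took account of the cohort or of these markers are given beside the members' calls they change.

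By the GENCODE M21 annotation of build GRCm38, Rgs5 lies at chr1:169655501-169695813 on the plus strand, Anpep at chr7:79821803-79861059 on the minus strand, and Vtn at chr11:78499091-78502324 on the plus strand. Kcnj8 (chr6:142564837-142571614) and Abcc9 (chr6:142587862-142702315) are neighbours on the minus strand of chromosome 6. Acta2 (chr19:34241090-34255590), Tagln (chr9:45929619-45936058) and Myh11 (chr16:14194535-14291372) are on minus strands, and Des (chr1:75360329-75368579) is on the plus strand. Tagln overlaps the end of Pcsk7 on the opposite strand and an antisense gene, and 58.35% of the 50-base stretches of its exons also occur in them, so that without strand their reads cannot be told apart. The library kit kept strand, but whether counting used it is not given in the sources used here. The same share was 4.61% for Des, 1.95% for Abcc9, 0.34% for Myh11 and 0.33% for Acta2, and 0 for the other 5 members.

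Serum response factor, a regulator of contractile genes, binds the CArG box, so this motif was searched on both strands in the 250 bases before the RefSeq start of the 7 members with an entry in the promoter table used here, which were Rgs5, Kcnj8, Abcc9, Anpep, Vtn, Acta2 and Des. The strict CArG box was in none of the 7 and in 1.47% of 32851 promoters. A form with 1 free base in the core, chosen after the strict form gave no match, was in 1 of the 7, Acta2, and in 8.59% of all promoters. Both stretches of Acta2 (RefSeq, GRCm38.p6) are shown because Acta2 and Tagln were the closest pair of members over the mice, as given further on; they run 5′ to 3′ on the minus strand, with the matched letters in capitals.
Acta2 match 1, chr19:34255438-34255467: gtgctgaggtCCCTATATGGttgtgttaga
Acta2 match 2, chr19:34255388-34255417: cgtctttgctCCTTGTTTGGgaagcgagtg
The matches begin 84 and 34 bases before the RefSeq start, and both stretches lie inside the first exon of 1 of the 2 Acta2 transcripts in GENCODE M21. A match of letters is a description and not evidence of binding.

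In non-stroked WT tissue the members spanned a wide range of levels per length. In RPKM, which is CPM per kilobase of exon, Vtn, which encodes the adhesive glycoprotein vitronectin, was highest at 28.1 ± 1.53 (SD, n = 4), followed by Rgs5, a brake on G protein signalling, at 22.7 ± 2.40. Pdgfrb stood at 5.45 ± 0.683 and Acta2, smooth muscle actin, at 2.69 ± 0.231 RPKM. The next members were close to each other. Tagln (transgelin, an actin-binding protein of smooth muscle) was at 1.55 ± 0.198, Anpep (aminopeptidase N, or CD13) at 1.45 ± 0.160, Abcc9 (the sulfonylurea receptor SUR2) at 1.35 ± 0.162 and Kcnj8 (the pore subunit Kir6.1 of the same potassium channel) at 1.34 ± 0.132 RPKM. The ranges of neighbours in this run of 4 overlapped, and all other neighbours in the order were apart. Myh11, the smooth muscle myosin heavy chain, was at 0.815 ± 0.0856 RPKM and Des, the intermediate filament desmin, was lowest at 0.425 ± 0.0434 RPKM. By mean RPKM Anpep ranked 4 among the members in stroked WT (4.28), WT-Tacr delayed (6.63), stroked Rag2-/- (4.004) and stroked NSG mice (4.90), and 6 in non-stroked WT and in WT-Tacr acute mice (2.12).

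Across all 29 mice the members differed in how far they moved. From the lowest to the highest mouse Anpep spanned 13.9-fold, Tagln 5.45-fold and Acta2 5.02-fold in CPM. Rgs5 spanned 1.74-fold, and Kcnj8, Vtn, Pdgfrb and Abcc9 between 2.10-fold and 2.16-fold. Myh11 and Des lay between these sets at 3.22-fold and 3.11-fold.

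**Figure D1:**
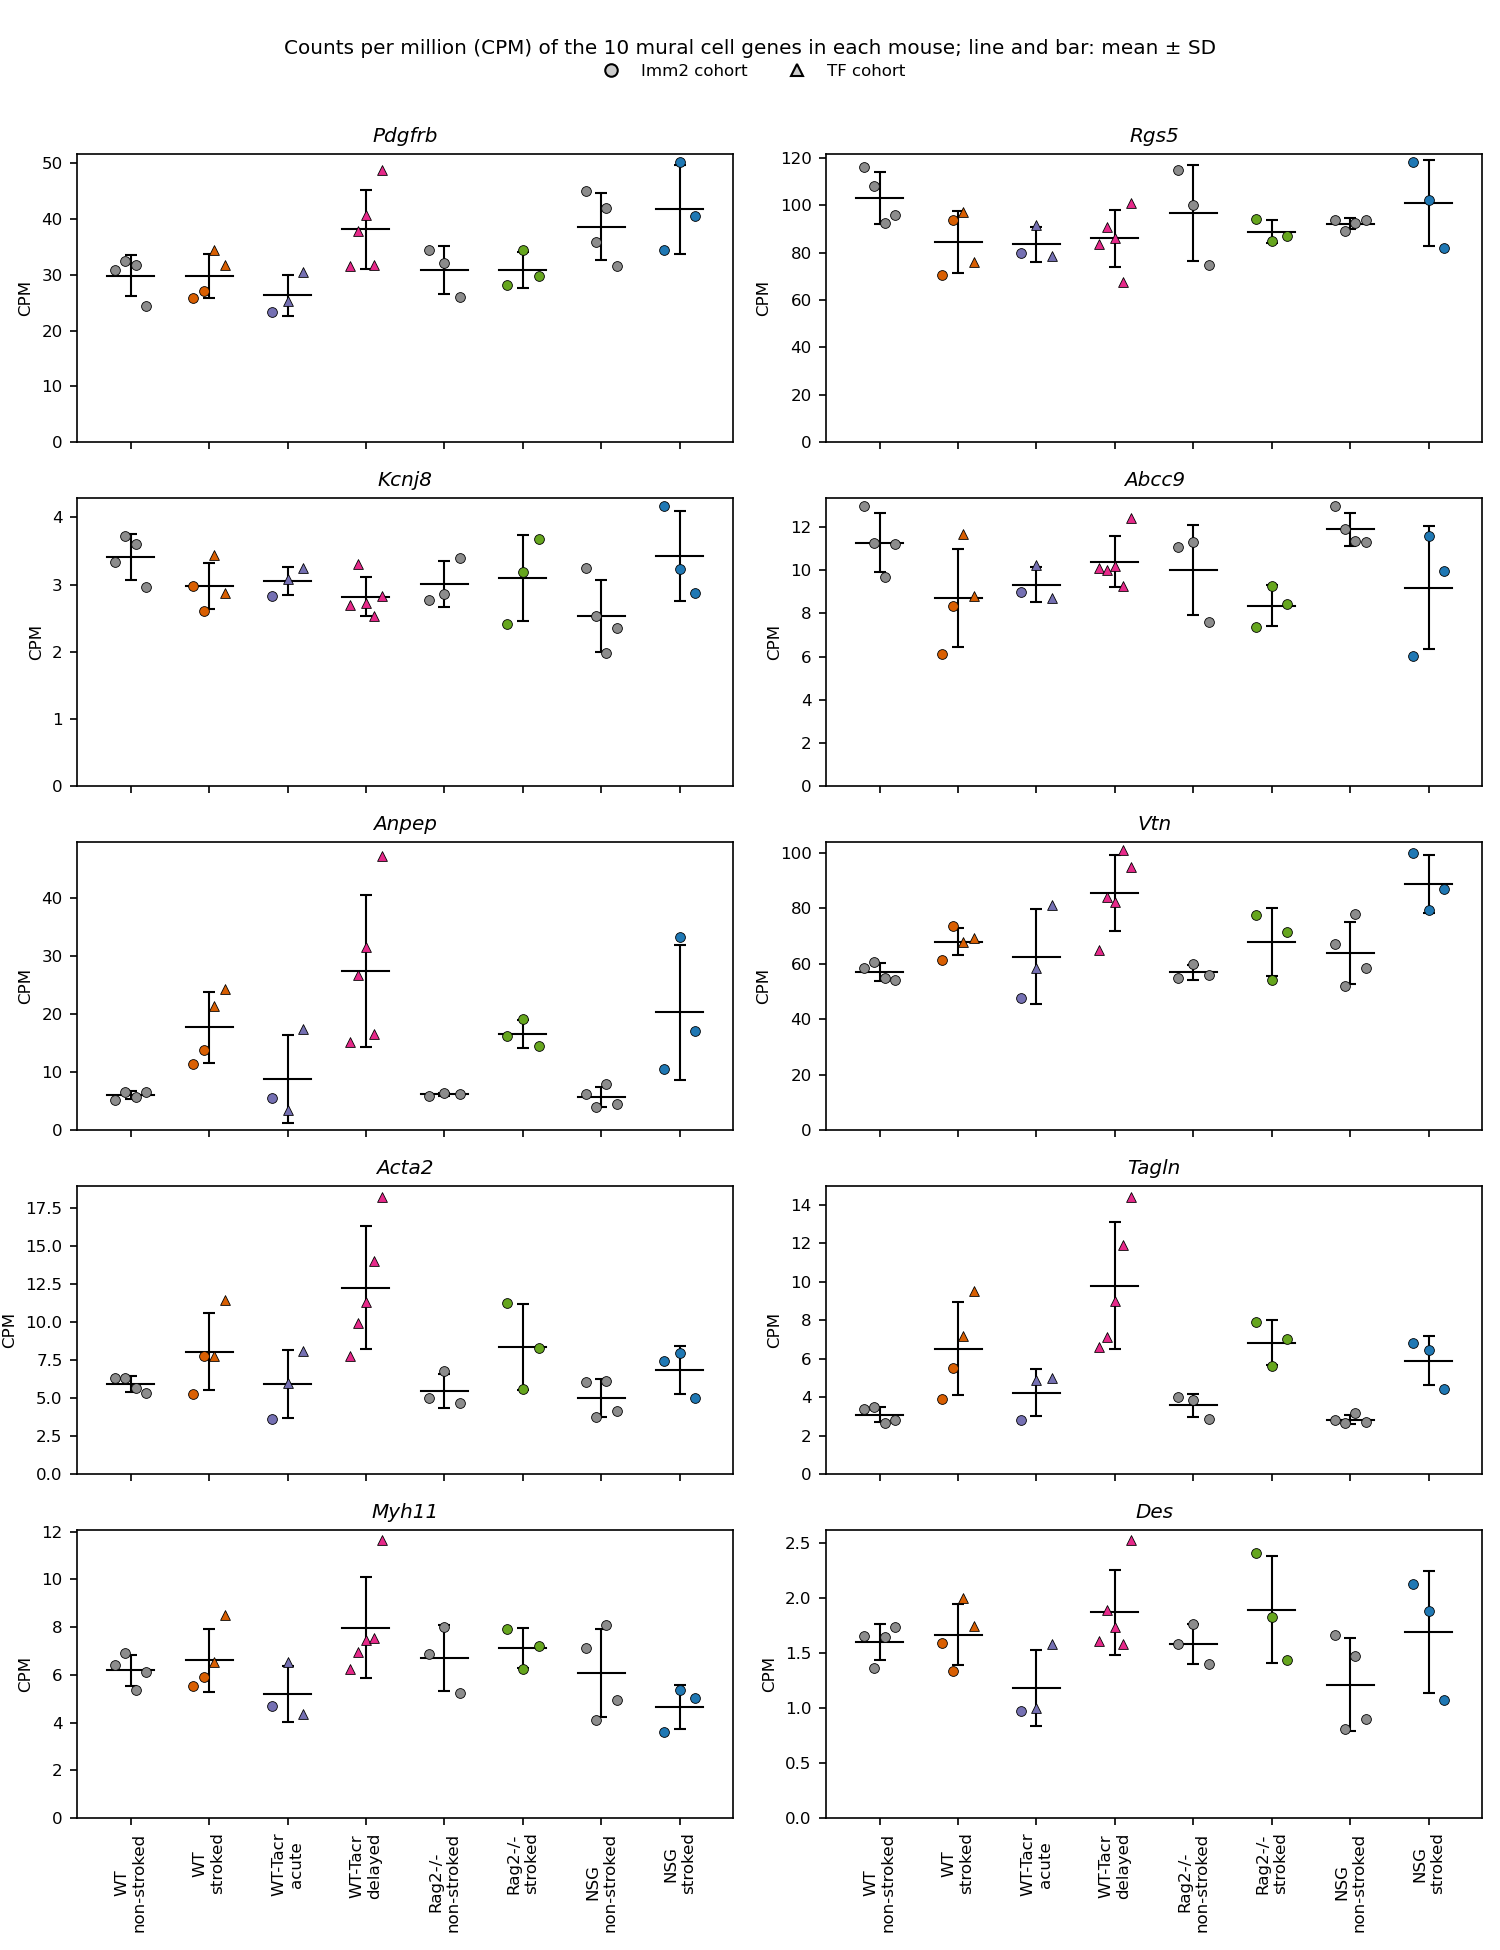
CPM of each of the 10 members in every mouse, 1 panel per member and 1 column per group; each point is a mouse (circles Imm2, triangles TF), with lines and bars for the group mean ± SD. Anpep and Tagln are higher in every stroked WT mouse than in every non-stroked WT mouse, while Rgs5 stays between 67.7 and 118 CPM in all 29.

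The first question was what a stroke changes in WT brain tissue 21 days on. Of the 10 members, Anpep and Tagln rose and none fell. Anpep rose 2.94-fold and Tagln 2.11-fold, whereas the canonical pericyte receptor Pdgfrb and the contractile myosin Myh11 had estimates near 0. Among all genes tested, 15.2% passed as higher and 11.6% as lower (edgeR quasi-likelihood test, Benjamini-Hochberg adjusted p below 0.05, the threshold used throughout). The members' median log2 fold change was 0.07.

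Anpep stood at 5.24, 6.61, 5.65 and 6.49 CPM in the 4 non-stroked WT mice and at 11.4, 13.8, 21.3 and 24.3 CPM in the 4 stroked ones. Every stroked mouse was above every non-stroked mouse, and the higher pair of stroked values came from the TF cohort. The log2 fold change was 1.56 ± 0.40 (SE; adjusted p = 0.0064 by edgeR). With cohort as a term it was 1.06 (adjusted p = 0.0979), and within Imm2 alone, with 2 stroked mice, it was 1.08 (adjusted p = 0.0405).

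Tagln read 3.36, 3.48, 2.68 and 2.83 CPM without stroke and 3.89, 5.50, 7.17 and 9.53 CPM after it. The groups were apart and, as for Anpep, the stroked mice of the TF cohort were the highest. Its log2 fold change of 1.07 ± 0.25 had an adjusted p of 0.00318 by edgeR. This became 0.61 with cohort as a term (adjusted p = 0.0863) and 0.61 within Imm2 (adjusted p = 0.0736), so that the call for Tagln was lost in both.

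Acta2, the usual partner of Tagln in smooth muscle, was at 6.32, 6.34, 5.67 and 5.31 CPM in non-stroked WT mice and at 5.28, 7.75, 7.74 and 11.5 CPM in stroked ones. Its groups overlapped, since 1 stroked mouse lay below all non-stroked mice, and its log2 fold change of 0.45 ± 0.27 did not pass (adjusted p = 0.227). Vtn went from 58.5, 60.6, 54.7 and 54.1 CPM to 61.4, 73.5, 67.9 and 69.2 CPM, with no overlap between groups, but its log2 fold change of 0.25 ± 0.14 did not pass either (adjusted p = 0.195).

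Pdgfrb was at 30.9, 32.5, 31.7 and 24.4 CPM without stroke and at 25.8, 27.2, 34.4 and 31.9 CPM after stroke. The groups overlapped, and the 95% interval of its log2 fold change ran from -0.31 to 0.30. The remaining members gave values of -0.29 ± 0.13 for Rgs5 (adjusted p = 0.0969), -0.37 ± 0.17 for Abcc9 (adjusted p = 0.11), -0.20 ± 0.16 for Kcnj8, 0.09 ± 0.21 for Myh11 and 0.05 ± 0.24 for Des. Of these, Abcc9 passed as lower when stroked WT replicate 3 was left out (-0.54, adjusted p = 0.0354).

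Both members that rose are also made outside mural cells, so markers of other cell types are given beside them. Aminopeptidase N is found on fibroblasts and myeloid cells, and transgelin in activated fibroblasts. Of 11 fibroblast markers tested 8 rose and none fell, led by Mgp (log2 fold change 3.26), the proteoglycan Lum (4.196), the collagen Col3a1 (4.76) and Dcn (2.99), and the summed level of the 12 markers was 235 to 300 CPM in non-stroked and 628 to 1179 CPM in stroked WT mice. Of 11 macrophage and microglia markers 10 rose, with a summed level of 172 to 200 CPM before and 352 to 455 CPM after. Of 12 endothelial markers 3 rose and 3 fell, with summed levels of 312 to 360 and 256 to 449 CPM, and with cohort as a term 1 was higher and 5 were lower. No marker of these lists was at 0 in all libraries, and their part in the members' changes was not tested.

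**Figure D2:**
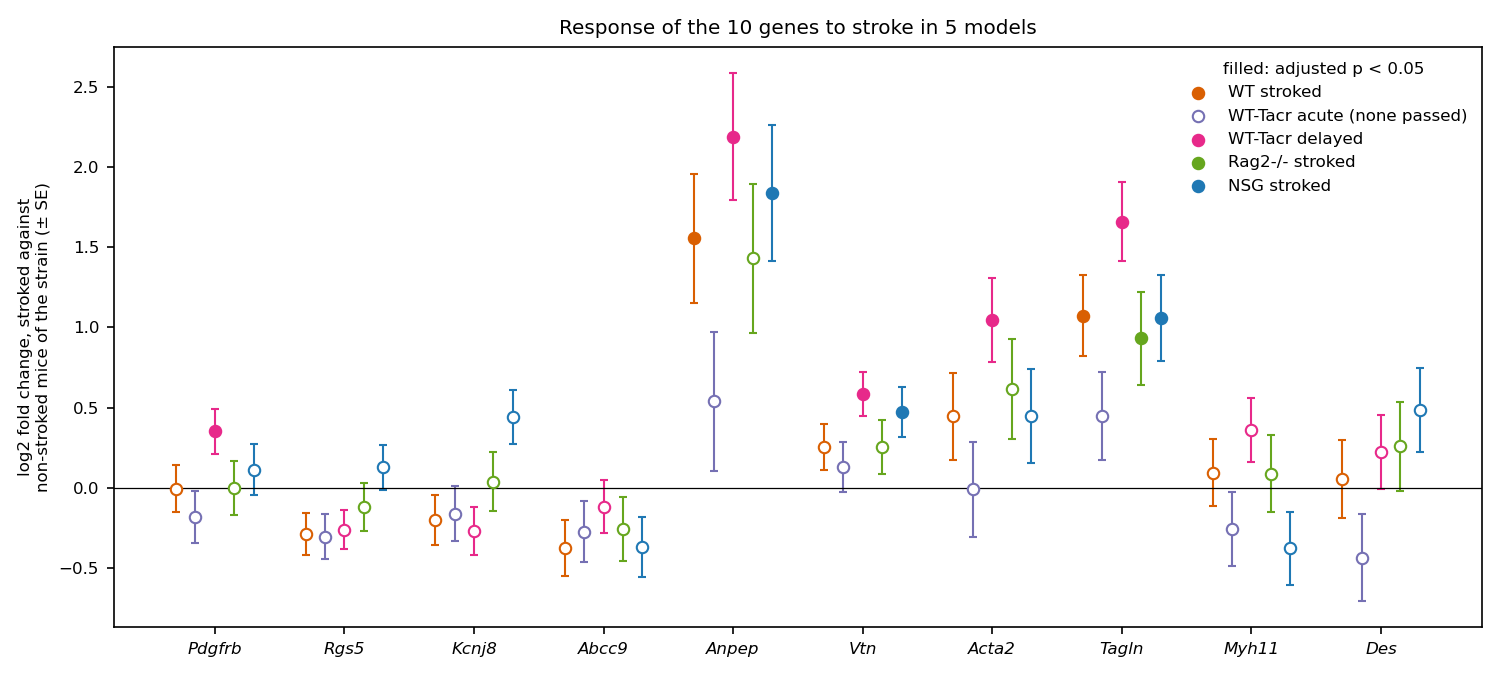
Log2 fold change ± SE of each member (horizontal axis) in the 5 stroked groups, by colour, each against non-stroked mice of its strain, with filled points for adjusted p below 0.05. Within stroked WT mice Anpep and Tagln are the highest members, at 1.56 and 1.07. In WT-Tacr delayed mice, all of the TF cohort, they are at 2.19 and 1.66. Delayed against stroked WT mice did not pass for either (edgeR adjusted p = 0.323 and 0.187).

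The same 2 genes led in the immunodeficient strains. In NSG mice Anpep (log2 fold change 1.84 ± 0.43, adjusted p = 0.00366), Tagln (1.06 ± 0.27, adjusted p = 0.00714) and Vtn (0.47 ± 0.15, adjusted p = 0.0308) rose after stroke by the edgeR test. No member fell. Among all genes 13% passed as higher and 8.89% as lower in this comparison, and the members' median log2 fold change was 0.44 against 0.03 over all genes.

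Anpep in NSG mice went from 6.17, 4.04, 7.91 and 4.55 CPM to 10.6, 33.2 and 17.0 CPM. All 3 stroked mice were above the 4 non-stroked ones, and the highest, replicate 2, also held the most Col1a1, a fibroblast collagen, at 377 CPM against 34.7 and 60.9 in the other two. Tagln went from 2.81, 2.64, 3.20 and 2.69 CPM to 6.81, 6.45 and 4.44 CPM, again with no overlap. Vtn moved from 67.0, 52.1, 77.7 and 58.6 CPM to 99.9, 79.2 and 86.8 CPM, groups that were apart by a narrow margin, and its call was lost when only these 2 groups were fitted (adjusted p = 0.106). It was also lost without non-stroked replicate 2 (0.39, adjusted p = 0.098) or 4 (0.43, adjusted p = 0.0734) and without stroked replicate 1 (0.37, adjusted p = 0.178).

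Kcnj8 in NSG mice read 3.25, 2.54, 1.98 and 2.35 CPM without stroke and 4.18, 3.24 and 2.88 CPM with it, a log2 difference of 0.44 ± 0.17 that did not pass (adjusted p = 0.063). It passed with cohort as a term (0.44, adjusted p = 0.0493), without non-stroked NSG replicate 1 (0.58, adjusted p = 0.022) and without stroked NSG replicate 3 (0.54, adjusted p = 0.0321). Its channel partner Abcc9 had a difference of the other sign, -0.37 ± 0.19 (adjusted p = 0.156). Acta2 gave 0.45 ± 0.29, Des 0.49 ± 0.26 and Myh11 -0.38 ± 0.23, none of which passed. Des passed without stroked replicate 3 (0.71, adjusted p = 0.0486), and Abcc9 passed as lower without stroked replicate 2 (-0.58, adjusted p = 0.0414). Fibroblast markers summed to 296 to 552 CPM in non-stroked and 529 to 1849 CPM in stroked NSG mice, and 8 of 11 rose. Macrophage and microglia markers summed to 228 to 263 CPM and 367 to 529 CPM, and 9 of 11 rose. The part of either list in the members' values was not tested.

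In Rag2-/- mice Tagln alone passed, at 0.93 ± 0.29 (adjusted p = 0.0444 by edgeR). It stood at 4.02, 3.83 and 2.89 CPM without stroke and 7.89, 5.60 and 7.05 CPM with it, and every stroked mouse was the higher. With 3 mice a group this call was close to the threshold, and it was lost with choroid plexus markers as a covariate (0.83, adjusted p = 0.113) and with no filter on low counts (adjusted p = 0.0516). It was also lost without non-stroked replicate 1, 2 or 4 or stroked replicate 1 or 3, where it was 0.79 to 1.02 with adjusted p of 0.0855 to 0.206, and of the 6 mice compared only stroked replicate 2 could be left out with the call kept. The background for this comparison was 6.71% of genes higher and 1.53% lower. These 1402 genes became 847 with the choroid plexus covariate, and 495 to 1294 when 1 of the compared mice was left out. Of 11 fibroblast markers 7 rose and of 11 macrophage and microglia markers 9 rose in these mice, with summed levels of 251 to 299 CPM before and 673 to 831 CPM after for the former, and at most 209 CPM before and 339 to 423 CPM after for the latter. Their part in the members' values was not tested.

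Anpep in Rag2-/- mice read 5.80, 6.38 and 6.23 CPM without stroke and 16.2, 19.1 and 14.4 CPM with it. These groups were far apart, yet the log2 fold change of 1.43 ± 0.46 just missed the threshold in the edgeR fit of all groups (adjusted p = 0.0556). It passed with DESeq2 (adjusted p = 0.0467), within Imm2 (adjusted p = 0.0054), with cohort as a term (adjusted p = 0.0327) and when only the Rag2-/- groups were fitted (adjusted p = 8.89e-05). Acta2 read 4.98, 6.75 and 4.67 CPM against 11.2, 5.60 and 8.30 CPM, with overlap and a log2 fold change of 0.62 ± 0.31 (adjusted p = 0.257). The remaining members, Vtn at 0.25 ± 0.17 among them, did not pass.

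Whether the strains differed was tested directly. The response to stroke in Rag2-/- mice minus that in WT mice passed for 0 of the 10 members by edgeR, with 0 at an unadjusted p below 0.05 and 0 by DESeq2, and for 0% of all genes. For NSG minus WT it passed for 0 members, with 2 at an unadjusted p below 0.05 (Kcnj8 0.64 ± 0.23, adjusted p = 0.275, and Rgs5 0.42 ± 0.19, adjusted p = 0.364) and 0 by DESeq2. Of all genes 0.0294% passed by edgeR and 137 of 25746 by DESeq2. Without stroked NSG replicate 3, 255 of 17247 genes passed by edgeR. The 95% interval of the NSG minus WT difference for Anpep ran from -0.93 to 1.49. That for Tagln ran from -0.79 to 0.75, and both leave room for differences in either direction.

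Stroked NSG and stroked Rag2-/- mice were each compared with stroked WT mice, and Pdgfrb in NSG mice was the 1 member that passed. It stood at 34.5, 50.3 and 40.6 CPM in stroked NSG mice, above all 4 stroked WT mice by a narrow margin, with a log2 difference of 0.49 ± 0.16 (adjusted p = 0.041 by edgeR). In that comparison 6.6% of genes passed as higher and 6.27% as lower. With cohort as a term the difference was 0.64 (adjusted p = 0.0164). Vtn (0.38 ± 0.16, adjusted p = 0.103) and Myh11 (-0.50 ± 0.23, adjusted p = 0.149) did not overlap between these groups but did not pass. The Pdgfrb call was lost with only stroked NSG and stroked WT mice in the fit (0.49, adjusted p = 0.213). It was also lost without NSG replicate 2 or without WT replicate 1, 2 or 4. Without stroke the difference in Pdgfrb between NSG and WT mice was 0.37 ± 0.15 (adjusted p = 0.117 by edgeR). The Pdgfrb response to stroke in NSG minus that in WT mice was 0.12 ± 0.22 (adjusted p = 0.847 by edgeR).

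Non-stroked mice of the strains were also compared. NSG against WT gave 0 members past the threshold by edgeR and 0 by DESeq2, with 2 at an unadjusted p below 0.05, beside 9.76% of all genes. These were Pdgfrb, which read 45.04, 35.9, 42.0 and 31.7 CPM in NSG mice (0.37 ± 0.15, adjusted p = 0.117), and Kcnj8 (-0.43 ± 0.16, adjusted p = 0.0886), which passed as lower without NSG replicate 1 (-0.57, adjusted p = 0.0275). Rag2-/- against WT gave 0 members, 0 at an unadjusted p below 0.05 and 0 by DESeq2, both without stroke and with it. By edgeR 0.00587% of all genes passed in each case. NSG against Rag2-/- without stroke likewise gave 0 members by edgeR, 0 at an unadjusted p below 0.05 and 0 by DESeq2, beside 6.33% of all genes.

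The second question was how tacrolimus given from day 0 or from day 7 bears on the vessel wall genes. Against the same 4 non-stroked WT mice as above, WT-Tacr acute mice had 0 members that passed by edgeR and 0 by DESeq2, with 1 (Rgs5) at an unadjusted p below 0.05, beside 6.18% of all genes higher and 2.36% lower. WT-Tacr delayed mice had 5 of 10 members higher and none lower, beside 27.6% of genes higher and 27.6% lower. Since these comparisons and that of stroked WT mice share their controls, their values are given side by side and not as independent support.

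The 3 WT-Tacr acute mice were unlike each other. Anpep read 5.45, 3.41 and 17.4 CPM in replicates 1, 2 and 3, so that replicate 1 was within the non-stroked WT range, replicate 2 below it and replicate 3 within the stroked WT range. Replicate 3 also held the most Col1a1, at 88.7 CPM against 13.97 and 6.87, and the most Itgax, an integrin of activated myeloid cells, at 12.7 CPM against 0.974 and 0.375. Against non-stroked WT mice the log2 difference of Anpep was 0.54 ± 0.43, with a 95% interval from -0.36 to 1.44 (adjusted p = 0.432).

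Tagln in WT-Tacr acute mice was at 2.82, 4.87 and 5.02 CPM (log2 difference 0.45 ± 0.27, adjusted p = 0.294) and Acta2 at 3.63, 5.99 and 8.11 CPM (-0.01 ± 0.30). The lowest value of each came from replicate 1, the mouse of the Imm2 cohort. Vtn was at 47.7, 58.5 and 81.3 CPM and Pdgfrb at 23.3, 25.3 and 30.4 CPM, each overlapping the non-stroked mice. Rgs5, at 78.6 to 91.7 CPM against 92.5 to 116 in non-stroked WT mice, was the member whose groups did not overlap (-0.31 ± 0.14, adjusted p = 0.159).

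In WT-Tacr delayed mice the members that rose against non-stroked WT mice were Anpep (2.19 ± 0.40, adjusted p = 7.25e-05), Tagln (1.66 ± 0.25, adjusted p = 7.68e-06), Acta2 (1.05 ± 0.26, adjusted p = 0.00164), Vtn (0.58 ± 0.14, adjusted p = 0.00107) and Pdgfrb (0.35 ± 0.14, adjusted p = 0.0362), by edgeR. Cohort moves with this comparison, since all 5 delayed mice are in TF and all 4 non-stroked mice in Imm2. With cohort as a term, estimated from the stroked WT and WT-Tacr acute mice, the log2 differences were 1.30 for Anpep (adjusted p = 0.129), 0.84 for Tagln (0.0753), 0.35 for Vtn (0.299), 0.33 for Acta2 (0.612) and 0.06 for Pdgfrb (0.901), and none of the 5 passed (2 members were at an unadjusted p below 0.05). The call for Pdgfrb was also lost with the choroid plexus covariate (0.33, adjusted p = 0.068) and without delayed replicate 2, 3 or 5 or non-stroked WT replicate 1 or 5 (0.25 to 0.37). Without that term cohort and group cannot be told apart. With it they are separated only through stroked mice, since no non-stroked library is in TF. This comparison also joins stroke with tacrolimus.

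Mouse by mouse, Anpep stood at 15.2, 26.6, 31.5, 16.5 and 47.3 CPM in replicates 1 to 5 of the delayed group. Tagln stood at 6.60, 7.15, 8.98, 11.9 and 14.4 CPM and Acta2 at 7.76, 9.92, 11.3, 14.03 and 18.2 CPM. For these 3 genes every delayed mouse was above every non-stroked WT mouse. Vtn read 65.1, 84.0, 82.1, 101.0 and 94.99 CPM, also apart from the non-stroked mice, whereas Pdgfrb, at 31.6, 37.9, 40.7, 31.8 and 48.8 CPM, overlapped them.

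The other 5 members did not pass in delayed mice. Rgs5 gave -0.26 ± 0.12 (adjusted p = 0.0717) and passed as lower with only these groups in the fit (-0.25, adjusted p = 0.0488) and without delayed replicate 5 (-0.33, adjusted p = 0.0355). The others were Kcnj8 at -0.27 ± 0.15 (adjusted p = 0.129) and Abcc9 at -0.12 ± 0.17. Myh11 gave 0.36 ± 0.20 (adjusted p = 0.129) and Des 0.22 ± 0.23. Fibroblast markers summed to 901 to 2548 CPM in these mice and 239 to 823 CPM in WT-Tacr acute mice, macrophage and microglia markers to 440 to 607 and 221 to 417 CPM, and endothelial markers to 390 to 531 and 270.5 to 393.5 CPM. In delayed against non-stroked mice 10 of 11 fibroblast and 10 of 11 macrophage and microglia markers rose, and their part in the members' values was not tested.

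Among stroked WT mice, tacrolimus given from day 7 gave higher values than tacrolimus given from day 0 for Anpep (log2 difference 1.65 ± 0.43, adjusted p = 0.0133), Tagln (1.22 ± 0.27, adjusted p = 0.0102), Acta2 (1.06 ± 0.29, adjusted p = 0.0159), Pdgfrb (0.54 ± 0.16, adjusted p = 0.0197) and Vtn (0.45 ± 0.15, adjusted p = 0.0372) in the edgeR fit of all groups. No member was lower, and 10.4% of genes passed as higher and 9.96% as lower. Pdgfrb and Tagln had groups that did not overlap. For Des the highest acute and the lowest delayed value were both 1.584 CPM at the digits kept. The share of all genes with groups apart was not counted, here or in the other comparisons. Myh11 (0.62 ± 0.22, adjusted p = 0.0518) and Des (0.66 ± 0.26, adjusted p = 0.075) lay just outside the threshold. In the same fit 9 of 11 fibroblast and 9 of 11 macrophage and microglia markers were higher, and 4 of 7 neuronal markers were lower. With cohort as a term these counts were 4, 9 and 4. Neuronal markers summed to 4547 to 5401 CPM in delayed and 5708 to 7983 CPM in acute mice. The part of these markers in the members' values was not tested.

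The members' calls in this comparison depended on how the mice were fitted. With cohort as a term Anpep (1.40), Acta2 (0.87) and Tagln (0.98) still passed, with adjusted p of 0.0414, 0.046 and 0.0313. Within TF alone, with 2 acute and 5 delayed mice, 0 members and 0 of all genes passed by edgeR, with 3 members at an unadjusted p below 0.05. With choroid plexus markers as a covariate, or with only these 2 groups in the fit, 0 members and 0 genes passed too, with 5 and 7 members at an unadjusted p below 0.05. The differences kept their sign in these fits. Anpep was at 1.41 within TF, 1.41 with the choroid plexus covariate and 1.67 with only these groups, Tagln at 1.01, 1.03 and 1.24, Acta2 at 0.82, 0.78 and 1.08, Pdgfrb at 0.48, 0.48 and 0.55, and Vtn at 0.32, 0.37 and 0.47. DESeq2, run on all groups, called 6 members, beside 3872 of 25746 genes. The choroid plexus transcript Ttr, for transthyretin, was at 1.24, 1.37 and 9.54 CPM in the acute mice and at 553, 5.39, 776, 766 and 738 CPM in the delayed mice. Without acute replicate 1, or without acute replicate 2, 0 members and 0 genes passed, and without replicate 1 the difference in Vtn was 0.28. The Vtn call was also lost without delayed replicate 3, 4 or 5 (0.39 to 0.47, adjusted p of 0.0531 to 0.0896). Without delayed replicate 5 the calls for Pdgfrb (0.43, adjusted p = 0.066) and Acta2 (0.87, adjusted p = 0.053) were lost too. Without acute replicate 3 the difference in Anpep was 2.58 (adjusted p = 0.000172).

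**Figure D3:**
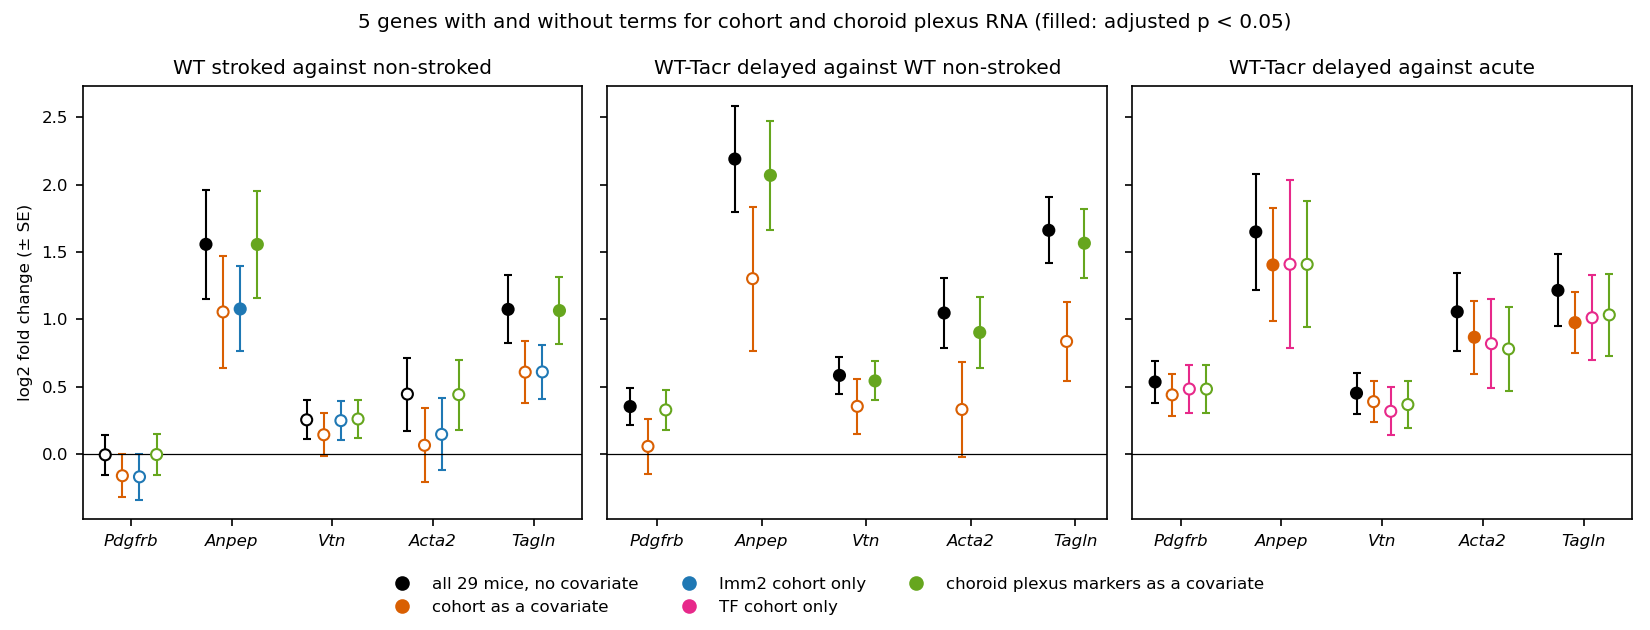
Log2 fold change ± SE of Pdgfrb, Anpep, Vtn, Acta2 and Tagln in 3 comparisons (panels), from the fit of all 29 mice and from fits with a term for cohort or choroid plexus markers or within 1 cohort (colours), with filled points for adjusted p below 0.05. In delayed against non-stroked mice the cohort term takes Acta2 from 1.05 to 0.33, and in delayed against acute mice no point is filled within TF or with the choroid plexus term.

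Both tacrolimus groups were also set against untreated stroked WT mice. For the acute group 0 members passed by edgeR and 0 by DESeq2, with 2 at an unadjusted p below 0.05, Anpep (-1.02 ± 0.44, adjusted p = 0.341) and Tagln (-0.63 ± 0.27, adjusted p = 0.344). By edgeR 0% of all genes passed, and by DESeq2 2 of 25746. The difference in Anpep became -1.96 and passed (adjusted p = 0.00764) without acute replicate 3, the mouse with high Col1a1 and Itgax, and 1437 of the 17262 genes tested passed in that fit. For the delayed group 0 members passed by either tool, with 4 at an unadjusted p below 0.05 (Pdgfrb 0.36, Vtn 0.33, Acta2 0.60 and Tagln 0.59, smallest adjusted p = 0.18). Here 0% of all genes passed by edgeR and 48 of 25746 by DESeq2. Within TF the differences were 0.27 for Anpep, 0.35 for Acta2 and 0.23 for Tagln. Tagln passed (0.83, adjusted p = 0.0442) without stroked WT replicate 4, in a fit where 1053 of 17027 genes passed. Without stroked WT replicate 3, 476 of 17026 genes passed by edgeR.

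Anpep was next set against the endothelium of the same library, as the log2 ratio of Anpep to Pecam1, an adhesion molecule of endothelial cells, with 1 CPM added to each. The mean ratio was -1.43 ± 0.24 (SD, n = 4) in non-stroked WT mice and -0.02 ± 0.23 (n = 4) in stroked ones, groups that did not overlap. The difference was 1.41 (two-sided exact permutation test, p = 0.0286, the smallest that 4 against 4 allows). Within Imm2 it was 1.29, with 2 stroked mice (exact p = 0.133).

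In WT-Tacr acute mice the ratios were -1.17, -2.32 and 0.04, a mean of -1.15 ± 1.18, and the difference from non-stroked WT mice was 0.28 (exact p = 0.629). Delayed mice averaged 0.28 ± 0.49 (n = 5), a difference of 1.71 (exact p = 0.0159, the smallest possible). Rag2-/- mice differed by 1.28 (exact p = 0.1) and NSG mice by 1.51 (exact p = 0.0571), which are again the smallest p those group sizes allow, so that neither design could reach 0.05. Adjusted over these 5 tests by Benjamini-Hochberg, the p-values were 0.0715 for WT and delayed mice, 0.0952 for NSG, 0.125 for Rag2-/- and 0.629 for acute mice, and none was below 0.05 in these exact tests.

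**Figure D4:**
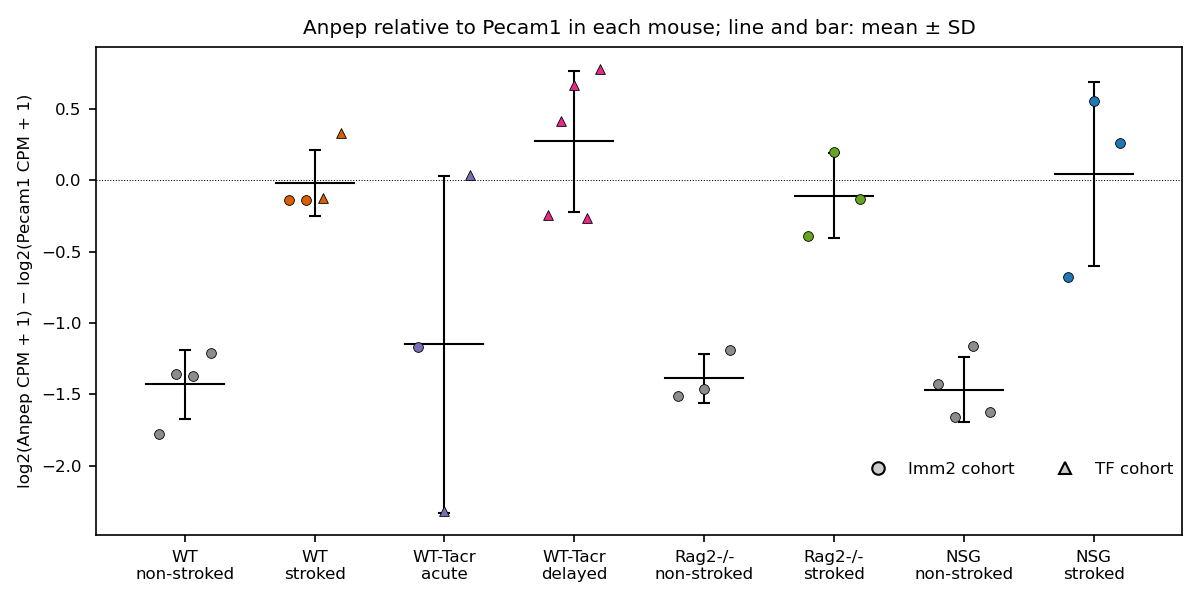
Log2 ratio of Anpep to Pecam1 (CPM + 1) in every mouse by group (circles Imm2, triangles TF), with lines and bars for the mean ± SD. All stroked mice of the WT, WT-Tacr delayed, Rag2-/- and NSG groups lie above all non-stroked mice of their strain, while the 3 WT-Tacr acute mice run from -2.32 to 0.04.

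The pathways around single members were then read from lists of related genes, whose counts are to be read against the shares of all genes given above, 15.2% higher and 11.6% lower in stroked WT mice and 27.6% in each direction in WT-Tacr delayed mice. With cohort as a term, the genes that passed fell from 4579 to 2096 in stroked WT mice, from 1454 to 52 in acute against non-stroked mice, from 9393 to 1533 in delayed against non-stroked mice and from 3465 to 1583 in delayed against acute mice. Without acute replicate 3 the count in acute against non-stroked mice was 37. The comparison of delayed with acute mice had 0 genes within TF, with the choroid plexus covariate or with only its own groups. It also had 0 genes without acute replicate 1 or without acute replicate 2, so every list call in it was lost in each of these fits. Pdgfrb is the receptor for PDGF-B made by endothelium. Of 5 other PDGF ligands and receptors 2 rose in stroked WT mice, Pdgfc (log2 fold change 0.59, adjusted p = 0.00629) and Pdgfd (0.83, adjusted p = 0.0176), of which the second also binds the receptor encoded by Pdgfrb. Pdgfb itself was at 0.12 (adjusted p = 0.43) and Pdgfra at 0.21 (adjusted p = 0.179). Pdgfd also rose in WT-Tacr delayed (1.23), Rag2-/- (1.13) and NSG mice (0.74) against their non-stroked mice, and was higher in delayed than in acute mice (1.12), by edgeR with adjusted p of 0.000203, 0.0177, 0.0479 and 0.0117. Under the cohort term 0 of the 5 passed in stroked WT mice and 0 in delayed against non-stroked mice, with 1 at an unadjusted p below 0.05 in each, and 1 was higher in delayed than in acute mice.

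Kcnj8 and Abcc9 together form the ATP-sensitive potassium channel of mural cells. The neuronal and endocrine forms of its subunits, Kcnj11 and Abcc8, both fell in stroked WT mice, by 0.52 (adjusted p = 0.0131) and by 0.53 (adjusted p = 0.022) on the log2 scale. They also fell in delayed mice, by 0.75 and 0.69. Neither passed in acute, Rag2-/- or NSG mice by edgeR or DESeq2, although both were at an unadjusted p below 0.05 in Rag2-/- mice (-0.45 and -0.41). Neither passed by edgeR in stroked WT mice or in delayed mice with cohort as a term, although 2 were at an unadjusted p below 0.05 in each. In the same WT comparison 3 of 7 neuronal markers, among them Rbfox3 (-0.62, adjusted p = 0.00832), fell and none rose, with a summed level of 7239 to 8035 CPM without stroke and 4900 to 6735 CPM with it. Under the cohort term 0 of the 7 passed by edgeR in stroked WT mice, with 3 at an unadjusted p below 0.05. In delayed against non-stroked mice 5 of the 7 fell, and under the cohort term 0 passed, with 3 at an unadjusted p below 0.05. Delayed mice were lower than acute mice for both channel genes and for 4 of the 7 markers, and under the cohort term for 1 and 4. The part of the neuronal markers in the channel values was not tested.

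Vitronectin binds integrins that contain the chain encoded by Itgav and the urokinase receptor encoded by Plaur. Of 6 such partners 4 rose in stroked WT mice and none fell, with the protease Plau at 1.37 (adjusted p = 0.00452), the integrin chain Itgb5 at 1.31 (adjusted p = 2.61e-05), Plaur at 1.12 (adjusted p = 0.00596) and the integrin chain Itgb1 at 0.40 (adjusted p = 0.0333). In the same comparison Vtn, at 0.25, did not pass. In WT-Tacr acute mice 1 of the 6 rose, Itgb5 (0.84), and the same gene was the 1 that rose in Rag2-/- mice (1.12). In NSG mice 3 rose and 1, Itgav (-0.48, adjusted p = 0.0173), fell. In delayed mice 4 rose, and 4 were higher in delayed than in acute mice. Under the cohort term 1 rose and 1 fell both in stroked WT mice and in delayed mice, 0 passed in acute mice (1 at an unadjusted p below 0.05), 2 rose in Rag2-/- mice, and 2 were higher in delayed than in acute mice.

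Rgs5 belongs to the R4 family of regulators of G protein signalling. Of 7 other R4 members 2 rose in stroked WT mice, Rgs1 (3.82, adjusted p = 0.000591) and Rgs18 (3.28, adjusted p = 0.00633), both of which are known from blood and immune cells. Rgs4, which is abundant in neurons, fell by 0.43 (adjusted p = 0.0413), and Rgs3 was at -0.06 (adjusted p = 0.669). Among 3 other intermediate filament genes related to Des, Vim rose (2.90, adjusted p = 3.92e-05) while Synm and Nes were at -0.12 and 0.16, and among 3 other actins tested Actg1 rose (0.50, adjusted p = 0.0209) while Actb was at 0.13 and Acta1 at -0.24. After cohort was added to the fit, 1 R4 gene and 1 intermediate filament gene were higher in stroked WT mice and 0 of the 3 actins, with 0 actins at an unadjusted p below 0.05. Vim encodes vimentin, which reactive astrocytes and fibroblasts also make.

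Other genes used as pericyte markers were counted next. Of 18 tested in stroked WT mice 2 rose, the transcription factor Tbx18 (1.04, adjusted p = 0.011) and the nucleotide receptor P2ry14 (0.64, adjusted p = 0.0392), and 1 fell, the transcription factor Foxf2 (-0.75, adjusted p = 0.0318). Foxc1 was at 0.63 (adjusted p = 0.0578). In acute mice 0 of the 18 passed by edgeR, with 2 at an unadjusted p below 0.05 and 1 by DESeq2. In delayed mice 8 rose and none fell, in Rag2-/- mice 1 rose, and in NSG mice 4 rose and 1 fell. Tbx18 was higher in delayed than in acute mice by 1.38 (adjusted p = 0.0103), as were 2 others of the list, Foxc1 (0.90) and Ecm2 (0.85), where 10.4% of all genes were higher. When cohort was a term, 0 rose and 1 fell in stroked WT mice, 0 passed in delayed against non-stroked mice (3 at an unadjusted p below 0.05), and 1 was higher in delayed than in acute mice.

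Of 24 further genes of the contractile apparatus 3 rose in stroked WT mice and 1 fell, shares no higher than those of all genes. The myosin light chain Myl9 rose by 0.47 (adjusted p = 0.0191), the actin cross-linker Flna by 0.62 (adjusted p = 0.0294) and the receptor component Ramp1 by 0.40 (adjusted p = 0.0429). Srf, which encodes serum response factor itself, fell by 0.39 (adjusted p = 0.0326). In delayed mice 9 rose and 3 fell, with Flna at 1.07, Myl9 at 0.68 and Srf at -0.70. In acute mice Ramp1 rose and Srf fell, in NSG mice 2 rose and 1 (Myocd, a partner of serum response factor, -1.22, adjusted p = 0.0354) fell, and in Rag2-/- mice 0 of 24 passed by edgeR, with 6 at an unadjusted p below 0.05 and 0 by DESeq2. Delayed mice were higher than acute mice for 3 of the 24 and lower for none. The fit with a cohort term gave 2 that rose in stroked WT mice, 0 that passed in acute mice (4 at an unadjusted p below 0.05), 1 that rose in delayed mice and 1 that was higher in delayed than in acute mice.

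A last list held genes that recruit mural cells or signal between them and endothelium. Of its 10 genes 6 rose in stroked WT mice, with the TGF-beta receptors Tgfbr1 (0.83, adjusted p = 0.00107) and Tgfbr2 (0.88, adjusted p = 0.00245), the sphingosine receptor S1pr3 (1.20, adjusted p = 0.0029) and the ligand Tgfb1 (0.95, adjusted p = 0.0037) among them. The angiopoietin receptor Tek fell by 0.57 (adjusted p = 0.0445). In delayed mice 8 rose and 1 fell, in Rag2-/- mice 5 rose, in NSG mice 4 rose, and in acute mice 0 passed by edgeR, with 0 at an unadjusted p below 0.05 and 0 by DESeq2. Delayed mice were higher than acute mice for 6 of the 10 and lower for none, where 10.4% of all genes were higher. When cohort was a term, 3 rose and 1 fell in stroked WT mice, 2 rose and 1 fell in delayed mice, and 4 were higher in delayed than in acute mice.

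How the members vary together was described over the 29 libraries after the mean of each library's group had been subtracted from log2 CPM. These correlations carry no test, and the libraries share cohort, depth and tissue make-up. Acta2 and Tagln were the closest pair of members (Pearson's r = 0.888, Spearman's rho = 0.844, n = 29), followed by Vtn and Acta2 (r = 0.806) and by Pdgfrb and Anpep (r = 0.740). Kcnj8 and Abcc9, which encode subunits of 1 channel and are neighbours on chromosome 6, had r = -0.087. Without the 2 libraries farthest from the median, r was 0.855 for Acta2 and Tagln, 0.760 for Vtn and Acta2, and 0.756 for Pdgfrb and Anpep.

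Among 14364 genes outside the members the ones most like each member were sought in the same way, so that a closer member is not counted here. For Anpep these were the fibroblast collagens Col1a2 (r = 0.973) and Col1a1 (r = 0.949) and the phagocyte oxidase subunit Cybb (r = 0.946). For Pdgfrb they were the chemokine Cxcl12 (r = 0.891), Reck (r = 0.877) and Aox1 (r = 0.875), and for Vtn the GABA transporter Slc6a13 (r = 0.894), Amy1 (r = 0.820) and Slc6a20a (r = 0.797). Slc6a13 is also on the list of fibroblast markers used above. For Anpep and Col1a2, r was 0.960 without the 2 libraries farthest from the median.

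Acta2 and Tagln were nearer to each other than to any of these genes, the nearest of which were Yes1 (r = 0.850) for Acta2 and Adcy4 (r = 0.822) for Tagln. The nearest genes of the other smooth muscle members were Lama3 (r = 0.798) for Myh11 and Lsr (r = 0.864) for Des. Rgs5 was nearest to Mcm9 (r = 0.773) and had the endothelial sialomucin Emcn (r = 0.679) among its nearest 3. Kcnj8 was nearest to Mapk12 (r = 0.748) and Abcc9 to Lnpep (r = 0.878). Anpep is thus the member whose closest genes are collagens of fibroblasts, with r = 0.949 to Col1a1. The other members varied with Col1a1 to differing degrees. Their r was 0.662 for Pdgfrb, 0.520 for Des, 0.472 for Acta2, 0.383 for Abcc9 and 0.328 for Myh11. It was 0.301 for Tagln, 0.294 for Vtn, 0.072 for Rgs5 and -0.020 for Kcnj8.

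**Figure D5:**
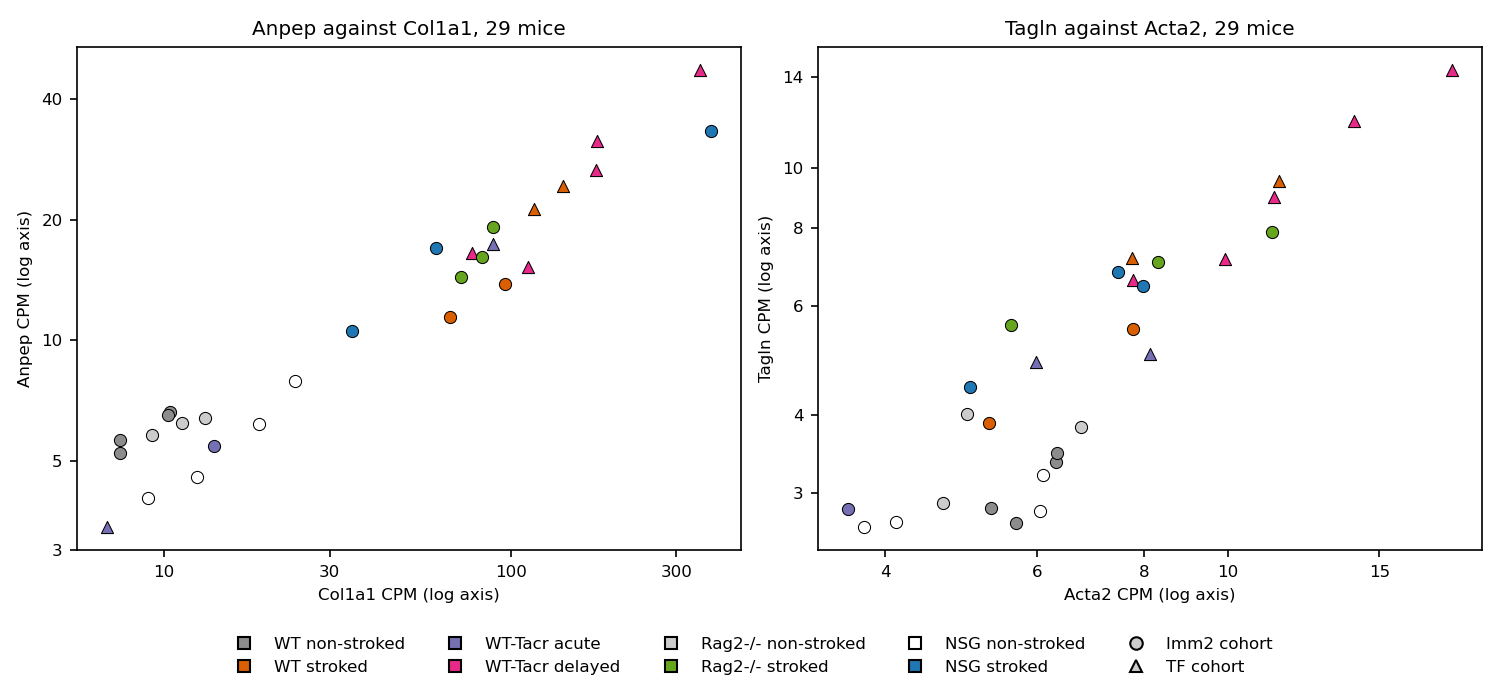
CPM of Anpep against Col1a1 and of Tagln against Acta2 in each of 29 mice (log axes), coloured by group, with circles for Imm2 and triangles for TF. In WT-Tacr acute mice the one with 88.7 CPM of Col1a1 has 17.4 CPM of Anpep, and those with 13.97 and 6.87 have 5.45 and 3.41.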

How the data were processed

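The authors deposited 1 file per mouse of raw read counts per Ensembl gene, whole numbers that were not normalized. They sequenced polyA-selected RNA with a stranded kit. The aligner, counter, genome build and use of strand in counting are not given in the sources used here. Groups came from the sample labels. Gene symbols, positions and exon lengths came from GENCODE M21, by gene identifier (25712 of 25746 matched), and promoters from RefSeq (GRCm38.p6).

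All 29 mice entered 1 quasi-likelihood fit in edgeR 4.0.16 (R 4.3.3), with TMM scaling, filterByExpr by group and Benjamini-Hochberg adjustment over 17031 genes. CPM used TMM-adjusted library sizes, and RPKM divided them by exon length. Intervals are 95% with 21 residual degrees of freedom. On counts simulated for stroked against non-stroked WT mice over 17031 genes, 44 of 50 genes changed 2-fold were recovered, and 14 of 50 changed 1.5-fold. The simulation gave all genes the same spread between mice and held no cohort or choroid plexus difference. Recovery of genes as spread as Anpep was therefore not measured. DESeq2 1.42.0, RLE scaling, other filters, a threshold of 1 on the log2 fold change beside the adjusted p, cohort terms, single cohorts, a choroid plexus covariate and leaving out each mouse were alternatives. The genes named were the members, up to 4 genes of each list with the smallest adjusted p in stroked against non-stroked WT mice, and the 3 genes most like each member. Foxc1 and Ecm2 in delayed mice, Itgav, Myocd, Tek, Itgax, Ttr and Col1a1 were named after their values were seen. The members and lists were chosen with earlier results of these data known. The p-values measure the spread between these libraries and assume that they are independent. A gene of the list around vitronectin is not reported here.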

Additional observations from a re-analysis of the deposited data

Results flagged for a closer look

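The values below were picked out because effects in 2 groups differed under 1 contrast. Tacrolimus given from day 7 and from day 0 differed, by the edgeR test of the difference in all 29 mice, in Tagln (log2 difference 1.22), Anpep (1.65), Acta2 (1.06), Pdgfrb (0.54) and Vtn (0.45). Delayed mice were higher in all 5, but none of the 5 passed within TF, with the choroid plexus covariate, with only these groups in the fit, or without acute replicate 1 or 2. The acute group held 2 mice with Anpep at 5.45 and 3.41 CPM and 1 with 17.4 CPM, and the delayed group had more choroid plexus RNA in 4 of its 5 mice. The part of either in these differences was not tested beyond the fits given above.

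For Kcnj8, the pore subunit of the mural potassium channel, every WT-Tacr acute and every WT-Tacr delayed mouse was below the mean of the non-stroked WT mice (log2 fold changes -0.16 and -0.27), and every stroked NSG mouse was above the mean of the non-stroked NSG mice (0.44). For Myh11, the smooth muscle myosin, every WT-Tacr delayed mouse was above the non-stroked WT mean (0.36), and every stroked NSG mouse was below the non-stroked NSG mean (-0.38). None of these 5 changes passed the edgeR test, and the differences between the groups were not tested.

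In the groups of 4 or 5 mice, 40 tests for a single mouse far from the rest of its group found 0, where chance would give about 1 in 20.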

How the results depend on the processing

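Of the 10 members, 2 passed in stroked against non-stroked WT mice, and this became 1 within Imm2, 0 with cohort as a term and 3 with only these groups in the fit, where Vtn passed too (adjusted p = 0.0405). The genes that passed went from 4579 to 1528, 2096 and 4314 in the same order. In NSG mice the count of 3 became 4 with cohort as a term and 2 with a fold threshold or with only these groups. All genes passing there went from 3726 to 4836, 933 and 792 in that order. For WT-Tacr delayed against non-stroked WT mice the count of 5 became 3 with a fold threshold added, 0 with cohort as a term, 4 with the choroid plexus covariate and 6 with only these groups. Beside these, the genes that passed went from 9393 to 2636, 1533, 8530 and 10471. In Rag2-/- mice the count of 1 became 2 with DESeq2, within Imm2, with cohort as a term and with only these groups in the fit. It became 0 with a fold threshold, with no filter on low counts and with the choroid plexus covariate, an alternative added after the data were seen. All genes passing went from 1402 to 1793, 1764, 1953 and 2455 where the members' count became 2. They went to 737, 1262 and 847 where it became 0. For delayed against acute mice the count of 5 became 3 with a fold threshold or with cohort as a term, and 0 within TF, with the choroid plexus covariate or with only these groups. The 3465 genes of the main fit became 979, 1583 and, in each of the others, 0. For stroked NSG against stroked WT mice the count of 1 became 0 with a fold threshold or with only these groups, where 2191 genes became 556 and 316. The Anpep to Pecam1 difference in WT mice was 1.41 and became 1.29 within Imm2 (exact permutation p = 0.133), where 4 against 2 mice cannot reach 0.05. The causes of these changes were not tested.

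Leaving out 1 mouse at a time, counts ran from 0 to 1 in Rag2-/- mice, from 2 to 5 in NSG mice, from 0 to 6 for delayed against acute mice, and from 0 to 1 for acute against stroked WT, delayed against stroked WT, stroked NSG against stroked WT and non-stroked NSG against WT mice. The WT ratio ran from 1.29 to 1.48. For the 17 member results that passed, in the stroked against non-stroked comparisons, delayed against acute mice and stroked NSG against stroked WT mice, 131 values under other settings kept the call in 101 and lost it in 30, and 135 values without 1 mouse kept it in 103 and lost it in 32. For the 39 that did not pass in the 5 comparisons with non-stroked mice, 7 of 307 and 6 of 282 such values passed. No called value changed sign.

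For replicate numbers shared by non-stroked groups of different strains, deviations from the group means correlated at -0.233 to 0.118. With 2 or 3 shared numbers in a comparison, this cannot settle whether the numbers pair the mice. With the replicate block 0 members passed in each of the 3 strain comparisons, as without it. Over all genes the block gave 859 against 1121 calls for NSG against WT, 36 against 1 for Rag2-/- against WT and 1205 against 1407 for NSG against Rag2-/-. At 24 to 84 counts a library, Des has the fewest counts of the members, and Anpep, the member most spread between mice, has the largest SE in stroked against non-stroked WT mice (0.40).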
